A study of Mus musculus with 51 samples.

Results

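The Hox genes encode homeodomain transcription factors that give cells along the body axis their regional identity. In mice they lie in 4 clusters, HoxA to HoxD, and the paralog number of a gene follows its place in the cluster: low numbers are switched on early and far forward in the embryo, high numbers later and further back. Fibroblasts and other stromal cells are known to keep a Hox pattern that reflects where in the body they arose. Here the Hox genes were followed across mouse stromal lines that differ in origin and in how well they maintain hematopoietic stem cells. Every probe set with exactly 1 gene symbol made of Hoxa, Hoxb, Hoxc or Hoxd and a number was taken, which gave 37 genes, each on 1 probe set, of 19938 genes measured. They are 10 HoxA genes on chromosome 6, 9 HoxB genes on chromosome 11, 9 HoxC genes on chromosome 15 and 9 HoxD genes on chromosome 2. Hoxb8, which shares its probe set with Hoxb7, was not analysed here.

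The series holds 51 Affymetrix mouse gene arrays in 17 groups of 3. From the aorta-gonad-mesonephros region (AGM, where the first stem cells appear) of embryonic day 11 (CBAxC57BL/10)F1 embryos came the supportive clone UG26.1B6, the less supportive UG26.3B5, and the supportive AM14-1C4 and AM30-3F4. From day 14.5 C57BL/6 fetal liver came the supportive clones AFT024 and 2012 and the non-supportive BFC012, BFC and AFT011. Adult bone marrow gave the supportive BMC9 and less supportive BMC10 (strain H2ts6) and the supportive 14F1-1 (BALB/c). OP9 is a supportive line from fetal calvaria, the skull vault, of (C57BL/6xC3H)F2-op/op mice. These 13 lines were confluent cultures on gelatin, kept at 33 °C except all 14F1-1 arrays and OP9 replicates 1 and 2, which were at 37 °C. In the other 4 groups AFT024 or BFC012 had been cultured for 4 days with or without bone marrow KLS cells (a fraction enriched for stem and progenitor cells), and the CD45-negative stroma was then sorted. Each group is a single line or clone, so between tissues the line, the tissue, the donor age and the mouse strain cannot be told apart. The labels do not state whether the 3 arrays of a group came from different cultures, and p-values here reflect array-to-array spread, which may be technical.

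Values are log2 signal. The arrays fell into 4 sets with separate distributions: the UG26, AFT024, BFC012 and BMC lines; OP9 and BFC; the sorted groups; and 14F1-1, AM14-1C4, AM30-3F4, 2012 and AFT011. Levels were compared only within a set, and the levels of single Hox genes were not compared with each other, since probe sets differ in response. For the marker lists only, the quartiles of all genes in a set served as a rough guide. Array replicates correlated at 0.97 or more in every group. Of 8 stromal fibroblast markers, 3 to 6 lay above the third quartile of all genes in every group, all 6 endothelial markers lay below the median in every group, and at least 9 of 10 hematopoietic markers did; the exception was Lyz2 in AM14-1C4.

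The miR-196 and miR-10 genes lie inside the clusters, and their products are shown because their hairpins had probe sets of their own. Mir196a-1 (HoxB cluster, chromosome 11) and Mir196a-2 (HoxC cluster, chromosome 15) yield the same mature miR-196a-5p, and Mir196b (HoxA cluster, chromosome 6) yields miR-196b-5p. The mature RNAs of the miR-196 family and of the miR-10 family follow from RefSeq (GRCm38.p6), 5′ to 3′, with the seed (bases 2 to 8) in capitals.
mmu-miR-196a-5p: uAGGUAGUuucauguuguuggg
mmu-miR-196b-5p: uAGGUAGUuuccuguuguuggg
mmu-miR-10a-5p: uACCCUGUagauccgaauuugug
mmu-miR-10b-5p: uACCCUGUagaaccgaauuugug
Both miR-196 members share one seed, and both miR-10 members share another. Members of miR-196 are known to target Hoxb8 and other Hox messages.

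The clusters differed in how much they varied among lines. Among the UG26, AFT024, BFC012 and BMC lines, 8 of 9 HoxC genes had group means that spanned at least 2 log2 units, as did 5 of 10 HoxA genes and 2 of 9 HoxB genes. All 9 HoxD genes spanned less than 0.5 there, with a largest span of 0.31. HoxD group means in that set lay between 5.28 and 6.56. The 6 genes with the widest span were Hoxc8, Hoxc10, Hoxc12, Hoxb9, Hoxc6 and Hoxa11. In the set with 14F1-1, 7 of 9 HoxC genes, 5 of 9 HoxB genes, 3 of 10 HoxA genes and 1 of 9 HoxD genes spanned at least 2 units.

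**Figure D1:**
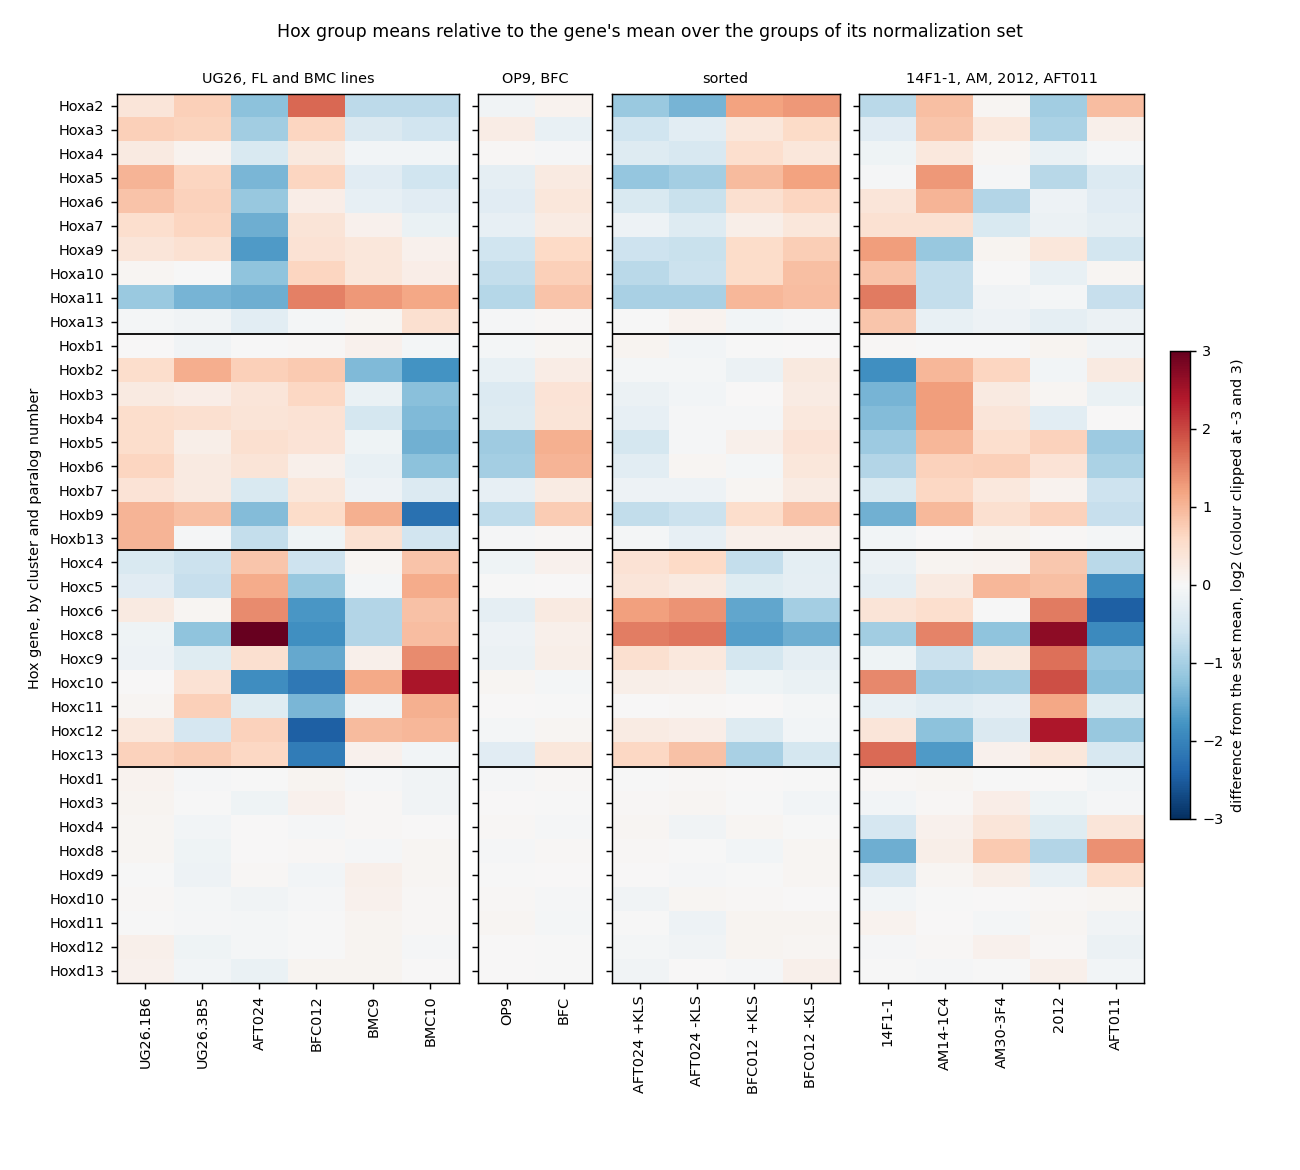
Group means of the 37 Hox genes (rows, by cluster and paralog number) in the 17 groups (columns), as the log2 difference from the gene's mean over the groups of its own normalization set; black lines part the clusters. The HoxC block has the deepest colours, and the HoxD block is nearly blank apart from the right-hand panel, where group means of Hoxd8 span 2.83, of Hoxd9 1.02 and of Hoxd4 0.87.

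AFT024 against BFC012 asks how a supportive and a non-supportive fetal liver clone differ. All 9 HoxC genes were higher in AFT024, and 9 of 10 HoxA genes were lower. Hoxc8, a gene of the thoracic region, had 11.32, 10.51 and 11.27 in AFT024, against 6.31, 5.99 and 5.83 in BFC012. The lowest AFT024 array lay more than 4 units above the highest BFC012 array, and the difference was 4.99 ± 0.18 (SE), a 31.7-fold higher signal (adjusted p = 9.45e-22, limma). Its neighbour Hoxc6 had 9.82, 9.60 and 9.36 in AFT024 and 6.63, 6.00 and 6.68 in BFC012. Hoxc12, at the posterior end of the cluster, had 9.52, 8.71 and 9.34 in AFT024 and 6.02, 6.07 and 6.09 in BFC012. Neither gene's arrays overlapped between the lines, and the differences were 3.15 ± 0.15 and 3.13 ± 0.13. Hoxc13, known for its role in hair and nails, was higher by 2.73 and Hoxc5 by 2.25.

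The HoxA genes ran the other way. Hoxa11, which patterns the forearm and lower leg, had 6.09, 5.75 and 5.94 in AFT024, against 9.02, 8.72 and 8.96 in BFC012. Hoxa2, which acts in the hindbrain and second pharyngeal arch, averaged 6.44 ± 0.11 in AFT024 and 9.41 ± 0.31 in BFC012 (SD, n = 3 each). Neither gene had overlapping arrays, with differences of -2.98 ± 0.13 and -2.97 ± 0.16, and Hoxa9 differed by -2.12. In all, 22 of 37 Hox genes passed an adjusted p of 0.05, 9 higher and 13 lower in AFT024, where 28.5% of all genes passed (15.6% higher, 12.9% lower). The median difference was 2.25 over HoxC, -1.86 over HoxA and -0.06 over HoxB, against -0.02 over all genes. Within HoxB, Hoxb7, Hoxb9 and Hoxb13 passed, all lower in AFT024, with Hoxb9 at -1.85 ± 0.09. Hoxd3 was the single HoxD gene to pass, at -0.24. Hoxc10, the smallest of the HoxC differences (0.28), and Hoxd3 each lost the call without AFT024 replicate 1 or 2 or BFC012 replicate 2 or 3, and Hoxb13 without AFT024 replicate 1 or BFC012 replicate 3.

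Markers of another cell type moved with this pair. Of 6 mesothelial markers, 5 were lower and 1 higher in AFT024, their summed log2 level ran from 41.8 to 42.3 in AFT024 and from 52.9 to 55.2 in BFC012, and their part in the Hox differences was not tested. Of 8 stromal fibroblast markers, 5 were higher and 1 lower in AFT024. In bulk RNA, fewer cells of a type and less RNA per cell cannot be told apart.

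**Figure D2:**
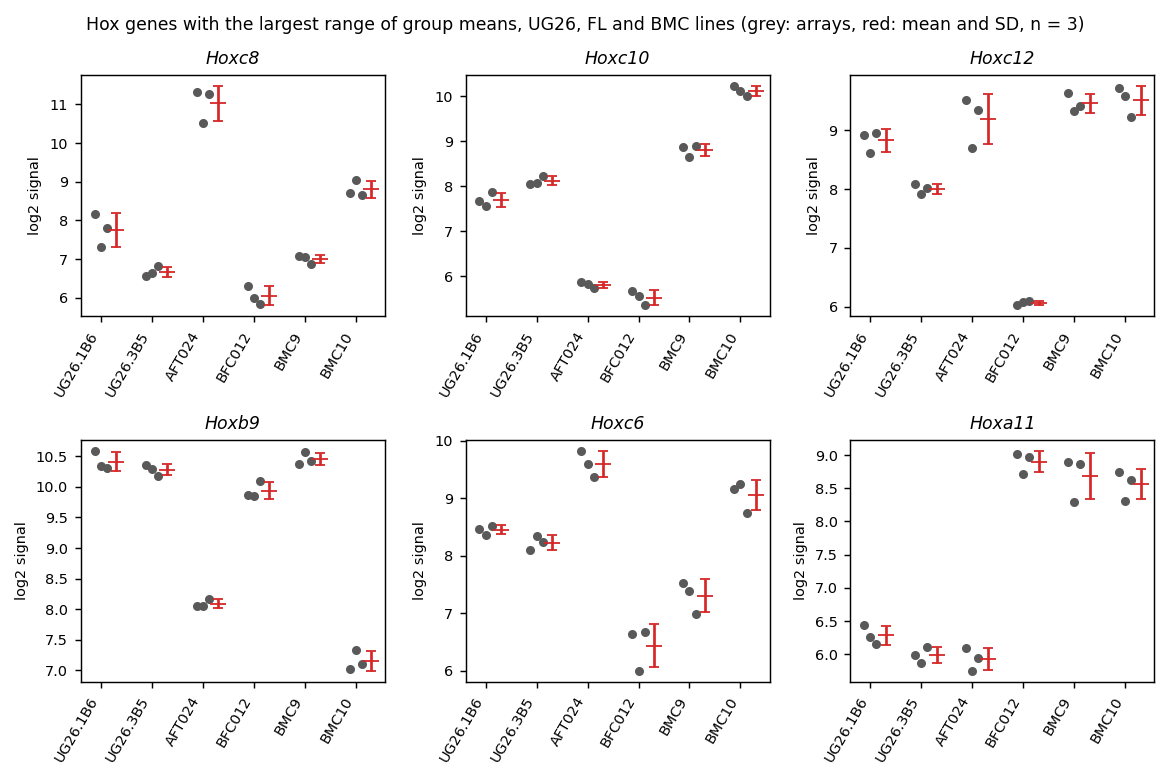
Log2 signal on each array (grey) and mean with SD (red, n = 3) for the 6 Hox genes with the widest span among the UG26, AFT024, BFC012 and BMC lines. Hoxc8 is highest in AFT024, Hoxc10 in BMC10, and BFC012 is lowest for all 4 HoxC genes shown.

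The promoters of Hoxa2 and Hoxa11, the HoxA genes with the largest differences, are shown because both were lower in AFT024; each is the 250 bases before the RefSeq start on the minus strand (GRCm38.p6), in lower case, with capitals for a match on either strand to TGATNNAT, letters found in sites bound by Hox and Pbx proteins together. Hoxa2 lies at chr6:52164832-52165081 and Hoxa11 at chr6:52245811-52246060.
Hoxa2: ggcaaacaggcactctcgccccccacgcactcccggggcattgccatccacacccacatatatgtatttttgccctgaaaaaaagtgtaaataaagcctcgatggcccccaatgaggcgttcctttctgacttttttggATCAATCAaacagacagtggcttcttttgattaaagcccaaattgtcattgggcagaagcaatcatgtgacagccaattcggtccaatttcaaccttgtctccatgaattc
Hoxa11: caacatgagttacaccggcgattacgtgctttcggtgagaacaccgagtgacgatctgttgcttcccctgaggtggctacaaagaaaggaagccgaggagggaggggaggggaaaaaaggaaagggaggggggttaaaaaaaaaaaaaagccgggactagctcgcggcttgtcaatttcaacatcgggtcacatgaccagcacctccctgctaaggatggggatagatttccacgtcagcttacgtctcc
Hoxa2 has 1 match and Hoxa11 has 0 in these windows. Over windows that also take in the 50 bases after the start, 3 of 23 Hox promoters (13%, from 21 genes) and 8.85% of 32851 promoters of all genes hold a match. Hox promoters had a median of 15 CG dinucleotides per 300 bases, against 7 for all promoters. The 23 Hox promoters are those of HoxA and HoxD genes, apart from Hoxb1, Hoxb4 and Hoxc4, so HoxB and HoxC are barely covered.

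The same pair was measured again in sorted stroma, on separate arrays. Without KLS cells, Hoxc8 had 8.02, 8.57 and 8.54 in AFT024 and 5.04, 5.34 and 5.54 in BFC012, a difference of 3.07 ± 0.29. With KLS cells it had 9.14, 7.96 and 7.87 in AFT024 and 5.16, 5.04 and 5.16 in BFC012, a difference of 3.20 ± 0.29. AFT024 was above BFC012 on every array in both conditions. Hoxa2 had 4.33, 4.49 and 4.41 in AFT024 and 6.83, 7.32 and 7.14 in BFC012 without KLS cells, and 4.80, 4.61 and 4.67 in AFT024 and 7.10, 7.04 and 6.86 in BFC012 with them. Its AFT024 arrays stayed more than 2 units below every BFC012 array.

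Without KLS cells 16 of 37 Hox genes passed, 3 higher and 13 lower in AFT024, where 7.32% of all genes passed (3.51% higher, 3.81% lower). Hoxc6 (2.36) and Hoxc13 (1.41) joined Hoxc8 on the higher side, and Hoxa5, a gene of the neck and upper thorax, differed by -2.23, Hoxa11 by -1.89, Hoxa10 by -1.56, Hoxb9 by -1.50 and Hoxa9 by -1.41. Deviations of same-numbered arrays of this pair correlated at 0.47 to 0.67, and those of differently numbered arrays at up to 0.50. A pairing by number is therefore not established. With the replicate number as a block 22 Hox genes passed, while the count over all genes moved to 3152, against 1459 without the block. With KLS cells 17 Hox genes passed, 7 of them HoxC genes higher and 10 lower in AFT024, where 11.6% of all genes passed (6.09% higher, 5.52% lower). Hoxc6 differed by 2.80, Hoxa2 by -2.31, Hoxa5 by -2.10, Hoxa11 by -1.96, Hoxc13 by 1.57, Hoxa10 by -1.35 and Hoxb9 by -1.27. Hoxc6, Hoxc8 and Hoxc13 were higher, and Hoxa2, Hoxa3, Hoxa4, Hoxa5, Hoxa6, Hoxa9, Hoxa10, Hoxa11 and Hoxb9 lower, in all 3 conditions; without KLS cells the call of Hoxa3 was lost without AFT024 replicate 3 or BFC012 replicate 2 or 3. With KLS cells, Hoxc9 lost its call without BFC012 replicate 1, Hoxc4 without BFC012 replicate 1 or 3, and Hoxc5 without any 1 array but AFT024 replicate 3. No Hox gene passed with opposite signs in any 2 conditions. Over the 37 genes, confluent and sorted differences correlated at r = 0.927 without and 0.930 with KLS cells, a description over genes of the same 2 clones. The posterior HoxC gene Hoxc12 differed by 3.13 in confluent cells but 0.29 (not past the threshold) without and 0.63 with KLS cells in sorted stroma. The 2 kinds of culture were normalized apart, and the change in size between them was not tested. Mesothelial markers were again lower in AFT024, 5 of 6 without and 3 of 6 with KLS cells.

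**Figure D3:**
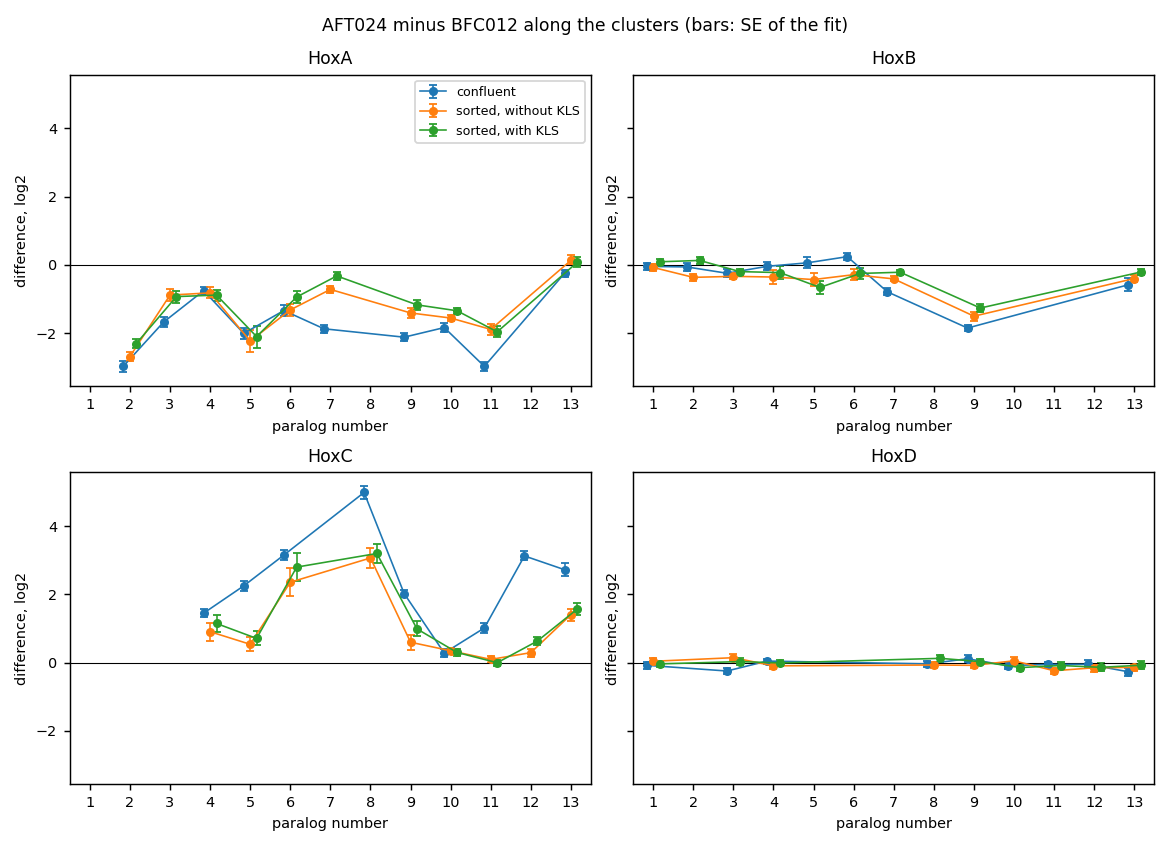
AFT024 minus BFC012 log2 difference (y axis) by paralog number (x axis) in each cluster, for confluent and sorted cells, with SE bars. HoxA points lie below 0 from Hoxa2 to Hoxa11 in all 3 conditions, HoxC points peak at Hoxc8, and HoxD points stay near 0.

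Exposure to KLS cells moved no Hox gene past the threshold. In AFT024 with KLS cells against without, 0 of 37 passed (3 at an unadjusted p under 0.05), where 0.351% of all genes passed, and the differences ran from -0.49 to 0.28. Hoxb5 had the largest, with 6.02, 6.84 and 6.44 with KLS cells and 6.69, 7.11 and 6.96 without, a difference whose 95% interval was -0.89 to -0.09 and whose arrays overlapped. In BFC012 0 of 37 passed (8 unadjusted), where 0.883% of all genes passed, and the differences ran from -0.56 to 0.15. Hoxc6 had 5.37, 5.22 and 4.89 with KLS cells and 5.17, 6.28 and 5.71 without, with an interval of -1.48 to 0.36, and its arrays overlapped too. Without replicate 1 of BFC012 without KLS cells, 1 Hox gene (Hoxb2) passed. Hoxb2 had 5.72, 5.50 and 5.79 with KLS cells and 6.03, 6.27 and 6.18 without in BFC012, a difference of -0.49 that did not pass on all arrays (adjusted p = 0.0864, limma). The arrays of 10 of 37 Hox genes in BFC012 (6 of them HoxB genes) did not overlap between the conditions. In AFT024 this held for 6 of 37 (2 of them HoxB genes). Differences below 0 numbered 27 of 37 in BFC012 and 19 of 37 in AFT024. The median over Hox genes was -0.17 in BFC012, against -0.02 over all genes, and -0.005 in AFT024, against 0.005. Shares over all genes are not given here for overlap, sign or unadjusted p, so these Hox counts have no background. The AFT024 response less the BFC012 response passed for 0 of 37 Hox genes (3 unadjusted) and for 0.0401% of all genes. A p above the threshold does not show that KLS cells left these genes as they were.

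A second fetal liver pair, 2012 against AFT011, again had all 9 HoxC genes higher in the supportive clone. Hoxc8 had 10.74, 10.85 and 10.87 in 2012 and 6.13, 6.49 and 6.02 in AFT011, a 24.3-fold difference (4.60 ± 0.18, adjusted p = 1.25e-20). Hoxc10, a lumbar and hindlimb gene, had 8.53, 8.89 and 9.09 in 2012 and 5.54, 5.71 and 5.69 in AFT011, a difference of 3.19, whereas its AFT024 minus BFC012 difference was 0.28. No array of 2012 overlapped AFT011 for either gene. Hoxc6 (4.02), Hoxc12 (3.57), Hoxc9 (2.81) and Hoxc5 (2.79) followed. In all 22 of 37 passed, 15 higher and 7 lower in 2012, where 27.6% of all genes passed (13.4% higher, 14.1% lower), and the HoxC median was 2.81. Among the 7 lower, Hoxb4 lost its call whichever array of the pair was left out. Hoxb2 lost its call without 2012 replicate 1 or AFT011 replicate 1 or 3.

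The HoxA genes did not repeat the first pair: 2 were higher and 2 lower in 2012. Hoxa2 (-1.98) and Hoxa3 (-1.08) were lower, as in AFT024, but Hoxa9 (0.89) and Hoxa11 (0.62) were higher. Hoxb9 was higher in 2012 by 1.37, where it had been lower in AFT024. Hoxd8 was the 1 HoxD gene whose group means spanned at least 2 units in any set, with 5.92, 5.90 and 6.20 in 2012 and 8.35, 8.22 and 8.23 in AFT011 (-2.26 ± 0.09). Its AFT011 arrays were the highest of that set, and AM30-3F4 followed with a mean of 7.685. Mesothelial markers were lower for 5 of 6 and higher for 1 in 2012, summing to 41.5 to 43.1 in 2012 and 58.1 to 58.5 in AFT011, and 4 of 8 stromal fibroblast markers were higher; their part was not tested.

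The AGM pair UG26.1B6 against UG26.3B5 had the fewest Hox calls of the confluent comparisons. The threshold was passed by 7 of 37 Hox genes, with 4 higher and 3 lower in the supportive clone, where 8.56% of all genes passed (4.34% higher, 4.22% lower), and none of the 10 HoxA genes was among them. Hoxc8 had 8.17, 7.30 and 7.80 in UG26.1B6 and 6.55, 6.65 and 6.81 in UG26.3B5, a 2.12-fold difference (1.09 ± 0.18), with no overlap. Hoxb13 (1.06, or 0.68 without UG26.1B6 replicate 3), Hoxc12 (0.83) and Hoxb6 (0.37) were also higher, and Hoxc11 (-0.64), Hoxb2 (-0.55) and Hoxc10 (-0.42) lower. With only the arrays of these lines in the fit 4 Hox genes passed, and Hoxb13, Hoxc10 and Hoxc11 did not; with the replicate number as a block 9 passed. The calls of Hoxb6 and Hoxc10 also rested on single arrays: Hoxb6 was lost without UG26.1B6 replicate 1 or 2 or UG26.3B5 replicate 1 or 3, and Hoxc10 without UG26.1B6 replicate 2 or UG26.3B5 replicate 3.

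In the bone marrow pair, BMC9 against BMC10, the HoxB genes that passed were higher and the HoxC genes that passed were lower in BMC9. Hoxb9, a thoracic gene, had 10.37, 10.58 and 10.43 in BMC9 and 7.02, 7.34 and 7.10 in BMC10, a 9.89-fold higher signal (3.31 ± 0.09, adjusted p = 2.25e-24). Hoxc8 had 7.07, 7.04 and 6.87 in BMC9 and 8.70, 9.05 and 8.66 in BMC10, a difference of -1.81 ± 0.18. Both genes separated the lines on every array, in opposite directions. Of 37 genes 16 passed, 8 higher and 8 lower in BMC9, where 15.5% of all genes passed (7.28% higher, 8.18% lower). Higher were 7 of 9 HoxB genes, among them Hoxb5 (1.32), and Hoxa7. Lower were 7 of 9 HoxC genes, among them Hoxc6 (-1.75), Hoxc10 (-1.31), Hoxc9 (-1.27), Hoxc5 (-1.18) and Hoxc11 (-1.17), and Hoxa13. Deviations of same-numbered arrays of this pair correlated at 0.12 to 0.44, and those of differently numbered arrays at up to 0.19, so a pairing is not established. With the replicate number as a block 13 of the 16 calls were kept, while Hoxa7, Hoxa13 and Hoxb2 lost theirs. Of 8 stromal fibroblast markers, 5 were higher in BMC9, and their part was not tested. Without 1 array, Hoxa7 lost its call (BMC9 replicate 1 or BMC10 replicate 1 or 3), as did Hoxa13 (replicate 2 of either line) and Hoxb2 (BMC10 replicate 3). The median difference was 1.03 over HoxB and -1.18 over HoxC.

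Set against the BMC lines as a pair, the UG26 lines had 8 of 9 HoxB genes higher and 6 of 9 HoxC genes lower; embryonic AGM and adult marrow differ here also in age and strain. Hoxa11 had 6.44, 6.26 and 6.16 in UG26.1B6 and 5.99, 5.87 and 6.11 in UG26.3B5, against 8.90, 8.29 and 8.87 in BMC9 and 8.75, 8.31 and 8.63 in BMC10. Hoxb2, a hindbrain gene, averaged 8.84 ± 0.15 in UG26.1B6 and 9.39 ± 0.12 in UG26.3B5, against 6.97 ± 0.15 in BMC9 and 6.52 ± 0.23 in BMC10 (SD, n = 3 each). Both separated the 2 tissues on every array, by -2.49 ± 0.10 and 2.37 ± 0.08. In all 25 of 37 passed, 15 higher and 10 lower in the UG26 lines, where 33.6% of all genes passed (16.1% higher, 17.5% lower). Hoxc13 was the HoxC gene that was higher. BMC9 and BMC10 themselves differed in 7 HoxB and 7 HoxC genes, so a difference of means need not hold for each line. Hoxc8 was among the lower HoxC genes, yet every UG26.1B6 array given above lay above every BMC9 array. Hoxc10 differed by -1.55, Hoxb4, used to expand stem cells, by 1.43, Hoxa2 by 1.32, Hoxa5 by 1.29 and Hoxa3 by 1.20. Hoxb9 passed too (1.54). It had 10.59, 10.34 and 10.31 in UG26.1B6 and 10.37, 10.30 and 10.18 in UG26.3B5, so that the BMC9 arrays given above overlapped those of UG26.1B6, and lay just above those of UG26.3B5, while the BMC10 arrays were lower than all of them.

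14F1-1, the other marrow line, was set against 2012. Here temperature (37 °C and 33 °C), tissue, donor age (adult and embryonic day 14.5) and strain cannot be told apart. Of 37 genes 26 passed, 9 higher and 17 lower in 14F1-1, where 36.6% of all genes passed (18.1% higher, 18.5% lower). Hoxa11 had 8.41, 8.25 and 8.70 in 14F1-1 and 6.83, 6.86 and 6.83 in 2012 (1.61 ± 0.13). Hoxc8 had 7.15, 6.97 and 7.13 in 14F1-1 and 10.74, 10.85 and 10.87 in 2012 (-3.74 ± 0.18). The arrays of the lines did not overlap for either. Higher were 8 of 10 HoxA genes and Hoxc13, and lower were 7 of 9 HoxB genes, 8 of 9 HoxC genes and 2 HoxD genes. Hoxb9 (-2.13), Hoxc12 (-2.08), Hoxc9 (-1.80), Hoxb5 (-1.78), Hoxb2 (-1.76) and Hoxb3 (-1.46) had the largest falls after Hoxc8.

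**Figure D4:**
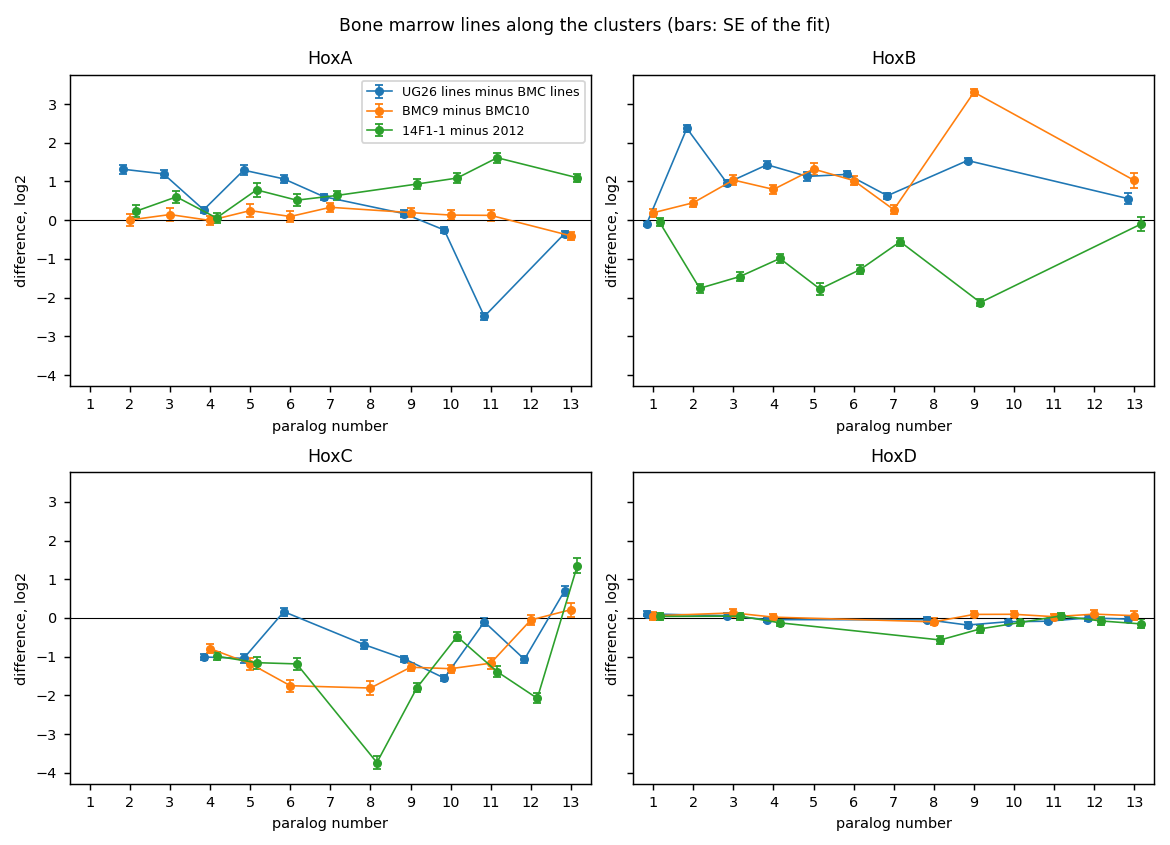
Log2 differences (y axis) by paralog number (x axis) in each cluster for the UG26 lines minus the BMC lines, BMC9 minus BMC10 and 14F1-1 minus 2012, with SE bars. BMC9 lies above BMC10 across HoxB and below it from Hoxc4 to Hoxc11. 14F1-1 lies above 2012 across HoxA, by 0.06 to 1.61.

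The AM lines were also set against 2012, whose arrays are shared with the comparisons of 14F1-1 and AFT011. Tissue, embryonic day (11 and 14.5) and strain cannot be told apart in this comparison. Hoxc10 had 5.74, 5.81 and 5.95 in AM14-1C4 and 5.83, 5.90 and 5.88 in AM30-3F4, against 8.53, 8.89 and 9.09 in 2012. Hoxc12 had 6.22, 6.35 and 6.46 in AM14-1C4 and 7.14, 7.09 and 7.22 in AM30-3F4, against 10.06, 10.03 and 9.91 in 2012. Both AM lines lay below every 2012 array, with differences of -2.98 ± 0.09 and -3.26 ± 0.11. Of 37 genes 23 passed, 13 higher and 10 lower in the AM lines, where 31.5% of all genes passed (16.2% higher, 15.3% lower). Lower were 8 of 9 HoxC genes, with Hoxc8 at -2.55, Hoxc9 at -1.85 and Hoxc11 at -1.43. Among paralogs 1 to 4, 8 of 11 genes were higher, with Hoxa2 at 1.53 and Hoxa3 at 1.52, and 1 (Hoxc4) was lower. Among paralogs 9 to 13, 1 of 16 (Hoxd9) was higher and 7 were lower. The 7 were Hoxa9, Hoxa11 and the HoxC genes from Hoxc9 to Hoxc13, so most of this count repeats the HoxC fall. Hoxa5 was higher by 1.46. Of 9 HoxD genes 4 were higher (Hoxd3, Hoxd4, Hoxd8 and Hoxd9) and 0 lower, with Hoxd8 at 1.38. Of 9 fits without 1 array, Hoxa11 lost its call in 4, Hoxd3 in 2, and Hoxa4 and Hoxb6 in 1 each.

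Between the 2 AM clones, AM14-1C4 against AM30-3F4, both directions were found. Of 37 genes 22 passed, 13 higher and 9 lower in AM14-1C4, where 31.6% of all genes passed (15.9% higher, 15.8% lower). Among paralogs 1 to 4, 5 genes were higher and 1 lower, among paralogs 5 to 8, 7 were higher and 2 lower, and among paralogs 9 to 13, 1 was higher and 6 were lower. Hoxc8 had 9.64, 9.52 and 9.67 in AM14-1C4 and 6.91, 7.02 and 6.85 in AM30-3F4 (2.68 ± 0.18). Hoxc13 had 6.15, 6.42 and 6.01 in AM14-1C4 and 8.05, 7.99 and 8.01 in AM30-3F4 (-1.83 ± 0.18). The clones did not overlap for either gene. Hoxa6 (1.91), Hoxa5 (1.34), Hoxb3 (0.98) and Hoxa7 (0.92) were higher, and Hoxa9 (-1.22) and Hoxc9 (-0.94) lower. Of 6 fits without 1 array, Hoxb7 lost its call in 5, Hoxb2 in 3, and Hoxb5 and Hoxd4 in 1 each.

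**Figure D5:**
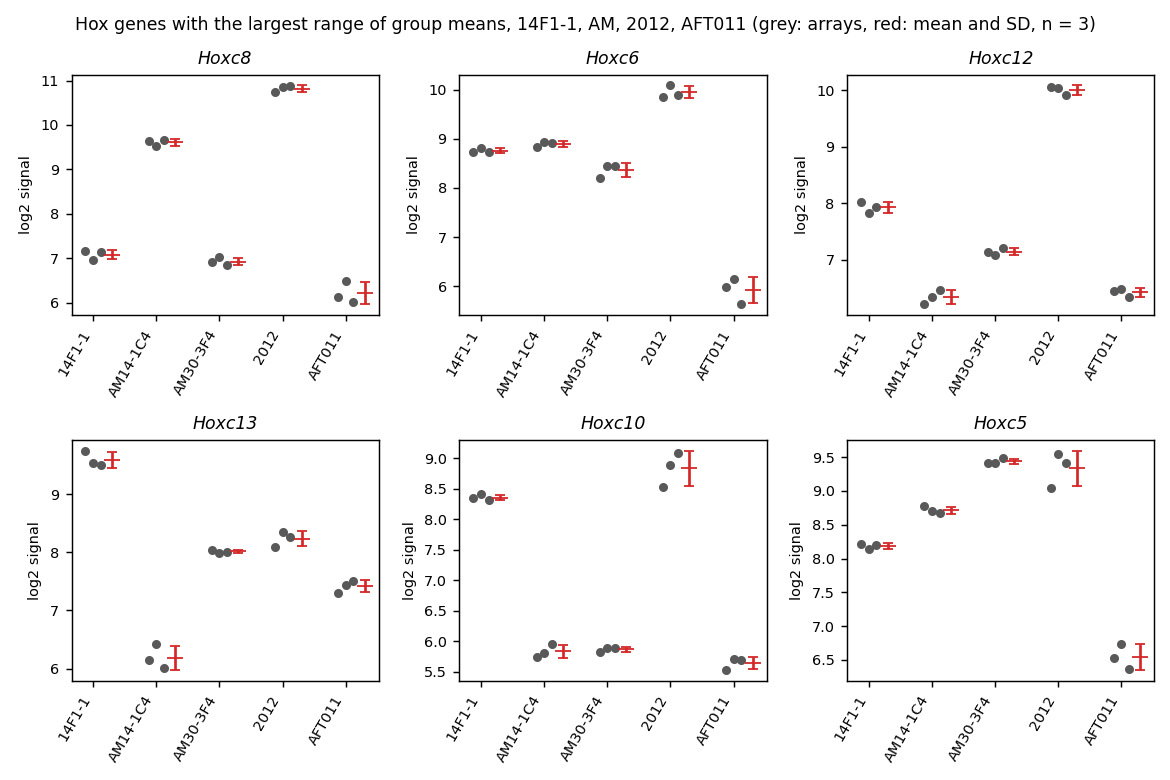
Log2 signal on each array (grey) and mean with SD (red, n = 3) for the 6 Hox genes with the widest span among 14F1-1, AM14-1C4, AM30-3F4, 2012 and AFT011. 2012 is highest for Hoxc8, Hoxc6, Hoxc12 and Hoxc10, and 14F1-1 is highest for Hoxc13.

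OP9, from the skull, was set against the fetal liver clone BFC. The head is known as a largely Hox-free region apart from its hindmost part. Hoxb5, a gene of the neck and shoulder region, had 4.14, 4.41 and 4.25 in OP9 and 6.12, 6.23 and 6.79 in BFC (-2.11 ± 0.16). Hoxb6 had 4.38, 4.12 and 4.33 in OP9 and 6.30, 6.20 and 6.48 in BFC (-2.05 ± 0.11). For both genes every OP9 array lay below every BFC array, including OP9 replicate 3, the array kept at 33 °C like BFC. The part of temperature in these differences was not tested, and line, tissue and strain also differ between OP9 and BFC.

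In all 17 of 37 passed, 1 higher and 16 lower in OP9, where 34.4% of all genes passed (17.5% higher, 16.9% lower). Hoxa11 (-1.69), Hoxb9 (-1.53), Hoxa10 (-1.41), Hoxa9 (-1.21), Hoxb3 (-0.81) and Hoxb4 (-0.80) were lower, and Hoxa3 (0.43) was higher, a call lost without OP9 replicate 1 or 2 or BFC replicate 2 or 3. Hoxa5 had 7.38, 7.42 and 7.09 in OP9 and 7.79, 7.81 and 7.93 in BFC, a difference of -0.55 that did not pass without OP9 replicate 3. Of 13 measured head homeobox genes outside the clusters, 3 were higher in OP9 (Dlx5, Dlx6 and Dlx4) and none lower, with a list median of -0.04; the share of all genes that were higher was 17.5%, so the count is near the background. Of 6 mesothelial markers 4 were lower in OP9, of 8 stromal fibroblast markers 7 were higher (median 1.15), and of 10 hematopoietic markers 3 were higher (Lyz2, Cd53 and Cd48). Summed log2 levels of these lists ran from 27.6 to 28.4, 66.9 to 67.3 and 38.6 to 40.0 in OP9, against 35.4 to 36.0, 55.0 to 55.6 and 37.3 to 38.8 in BFC, and their part in the Hox differences was not tested.

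The microRNA hairpins of the clusters were read beside their neighbours. Mir196a-1 lies near Hoxb9 in the HoxB cluster. It had 4.68, 4.84 and 4.75 in AFT024 and 6.90, 6.69 and 6.30 in BFC012, 6.51, 7.08 and 6.49 in BMC9 and 4.86, 4.69 and 4.64 in BMC10, and 6.81, 7.32 and 7.24 in 2012 and 5.40, 5.33 and 5.45 in AFT011. Its differences were -1.87, 1.96 and 1.73 in these 3 pairs, beside -1.85, 3.31 and 1.37 for Hoxb9 in the same pairs; this gene was singled out after its values were seen. Its arrays did not overlap in any of the 3 pairs. It passed in 3 more confluent comparisons, at 1.15 in the UG26 lines minus the BMC lines, -2.04 in 14F1-1 minus 2012 and -1.57 in the AM lines minus 2012, beside 1.54, -2.13 and 0.04 (not past the threshold) for Hoxb9. In OP9 minus BFC and in AM14-1C4 minus AM30-3F4, Hoxb9 passed and Mir196a-1 did not. In sorted stroma the AFT024 minus BFC012 difference of Mir196a-1 was -0.93 without KLS cells and -0.60 with them. Mir196b, in the HoxA cluster, differed by -0.94 between AFT024 and BFC012, and Mir196a-2, in the HoxC cluster, by 1.53 between 2012 and AFT011. The hairpin probe sets do not measure the mature RNA printed above, which Mir196a-1 and Mir196a-2 share. Mir10a, in the HoxB cluster on chromosome 11, was higher in AM14-1C4 than in AM30-3F4 by 0.66 and in the UG26 lines than in the BMC lines by 0.43, with overlapping arrays in the UG26 comparison. Mir10b, in the HoxD cluster on chromosome 2, passed in none of the 14 comparisons. Of 10 measured noncoding transcripts of the clusters, 1 was higher and 3 lower in AFT024 than in BFC012, where 15.6% of all genes were higher and 12.9% lower, with Hoxaas2, an antisense transcript of the HoxA cluster, at -2.62.

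The TALE homeodomain proteins (Pbx, Meis and Pknox) bind DNA together with Hox proteins. Of 8 measured, 6 passed between AFT024 and BFC012 (2 higher, 4 lower in AFT024), where 28.5% of all genes passed, 6 between the UG26 and BMC lines (5 higher, 1 lower in UG26), where 33.6% did, and 7 between 14F1-1 and 2012 (2 higher, 5 lower in 14F1-1), where 36.6% did. The AM lines minus 2012 had 5 higher and 1 lower (31.5% of all genes passed), and AM14-1C4 minus AM30-3F4 had 3 higher (31.6%). OP9 minus BFC had 2 higher and 2 lower (34.4%), BMC9 minus BMC10 had 2 higher and 1 lower (15.5%), 2012 minus AFT011 had 3 lower (27.6%), and UG26.1B6 minus UG26.3B5 had 2 lower (8.56%). In sorted stroma 0 of 8 passed between AFT024 and BFC012 without KLS cells, where 7.32% of all genes passed. With KLS cells 1 of 8 was lower, where 11.6% of all genes passed. Both counts are near these shares.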

How the data were processed

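Gene expression was read on Affymetrix mouse gene 1.0 ST arrays. The authors deposited 1 table of log2 values for 35556 probe sets on 51 arrays; RMA and Partek are named in the submitters' processing notes, with no version. Array quantiles showed 4 sets normalized apart, so every comparison stayed within a set. The deposited values were used unchanged. Of 21789 probe sets with 1 gene symbol, the one with the highest mean per gene was kept (19938 genes). limma 3.58.1 in R 4.3.3 was fitted with a mean per group, once to the 39 confluent arrays and once to the 12 sorted arrays, with Benjamini-Hochberg adjustment over all genes and a threshold of 0.05; it was tested on simulated data. With 3 arrays a group, precision is limited by their number. The members, gene lists and comparisons were chosen with earlier results of these data known. Values on every array are given for up to 6 Hox genes a set, chosen by span, and up to 8 passing Hox genes a comparison are named by size; a few others were chosen after their values were seen. Same-numbered arrays were taken as paired where each correlation of their deviations exceeded 0.1. This held for the UG26 pair (0.53, 0.33 and 0.47), the BMC pair (0.32, 0.12 and 0.44) and the sorted pair without KLS cells (0.67, 0.52 and 0.47). Arrays with different numbers correlated at up to 0.10, 0.19 and 0.50 in these pairs. In the BMC and sorted pairs that exceeded the lowest same-numbered value, so a pairing by number is not established there. Alternatives covered the arrays in the fit, the replicate block, a filter on dim genes, the mean over probe sets, quantile normalization, variance moderation and leaving out each array.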

Additional observations from a re-analysis of the deposited data

Results flagged for a closer look

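Several Hox genes passed in opposite directions in the supportive minus less supportive or non-supportive comparisons of 2 tissues. They were chosen after their values were seen, because both differences had passed with opposite signs. A test of the difference of differences on the same arrays was then all but bound to pass, so only its size is given. The AFT024 minus BFC012 difference less the BMC9 minus BMC10 difference was 6.80 for Hoxc8, 4.90 for Hoxc6, 3.43 for Hoxc5, 3.30 for Hoxc9, 2.24 for Hoxc4, 2.18 for Hoxc11 and 1.59 for Hoxc10, so 7 HoxC genes were higher in the supportive fetal liver clone and lower in the supportive marrow clone. It was -5.16 for Hoxb9, -2.21 for Hoxa7 and -1.61 for Hoxb13, which ran the other way. The AFT024 minus BFC012 difference less the UG26.1B6 minus UG26.3B5 difference was 1.66 for Hoxc11, 0.70 for Hoxc10 and -1.64 for Hoxb13. The UG26 difference less the BMC difference was 2.90 for Hoxc8 and -1.003 for Hoxb2. Hoxb13, Hoxc10 and Hoxc11 lost their call in the UG26 pair when only its arrays were fitted. In the BMC pair the calls of Hoxa7 and Hoxb2 were lost with the replicate number as a block. Between AFT024 and BFC012 the call of Hoxc10 was lost with that block and in 4 of 6 fits without 1 array. The call of Hoxb13 there was lost in 2 of 6 fits without 1 array.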

How the results depend on the processing

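Over the alternatives run, none of the 213 Hox differences past the threshold changed sign, and 32 of them lost the call without some 1 array. The count of Hox genes past the threshold stayed within 1.5 times its reported value in 189 of 191 cases. The exceptions were the UG26 pair, with 4 Hox genes when only its own arrays were fitted (5 to 7 when 1 array was left out, 9 with the replicate block), and KLS exposure of BFC012, which ranged from 0 to 1 when 1 array was left out. The 1 was Hoxb2, without BFC012 sorted without KLS replicate 1. The replicate block gave 22 Hox genes in the sorted pair without KLS cells and 13 in the BMC pair, against 16 reported for each, and 16 and 13 of these calls were kept; Hoxa7, Hoxa13 and Hoxb2 lost theirs in the BMC pair. In the UG26 pair it kept all 7. Between AFT024 and BFC012, whose arrays were not taken as paired, the block lost the calls of Hoxc10 and Hoxd3. In the UG26 pair Hoxb6 lost its call without UG26.1B6 replicate 1 or 2 or UG26.3B5 replicate 1 or 3, and Hoxc10 without UG26.1B6 replicate 2 or UG26.3B5 replicate 3. Counts over all genes moved by more than 1.5 times in 42 of 191 cases. With only the arrays of the set, and then only the arrays of the lines, the UG26 pair had 828 and 748 genes (1707 reported) and the BMC pair 1900 and 1296 (3082 reported); these fits have fewer arrays. The sorted pair without KLS cells had 884 with only its own arrays and 3152 with the block (1459 reported). With the block, KLS exposure gave 0 genes in AFT024 (70 reported), 58 in BFC012 (176 reported) and 0 for the difference of responses (8 reported). The deposited values hold no background measure, so a low signal and no signal cannot be told apart for genes with a small span, such as those of HoxD.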
